A study of Mus musculus with 4 samples.

Results

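In mouse embryonic fibroblasts (MEFs), 171 of 12616 analysed genes were shifted in the same direction on all 3 arrays of TAT-Cre-treated cells relative to the array of untreated parental cells, and were near the same level on those 3 arrays. Of these 171 genes, 143 were lower after TAT-Cre (1.13% of the analysed genes) and 28 were higher (0.222%). A gene was a member if each TAT-Cre array differed from the parental array by 1.6-fold or more in the same direction and if its highest and lowest values among the 3 TAT-Cre arrays were less than 1.6-fold apart. The measured values thus chose the members, so their shift and its evenness are given as a description with no test. Of the lower members, 22 were on lists of interferon and antigen presentation genes and 21 on a list of macrophage markers, and Rb1 itself was another. The higher members included 6 genes of the E2F-driven G1/S program and 5 histone H2A genes. Of the 12616 analysed genes, the 3 interferon lists held 34, 10 and 21, and the antigen presentation list 18. The macrophage list held 34, the G1/S list 63 and the H2A list 15.

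Expression was measured on 4 Illumina MouseWG-6 v2.0 BeadChip arrays, 1 array per condition. All 4 samples were MEFs of a mixed FVB;129 strain that carry floxed Rb alleles (Rb f/f), so every sample, the control included, started from the same conditional genotype. Parental MEFs received a mock solution without TAT-Cre and media alone in place of virus. Rb-deleted MEFs received 2 treatments of 1 h with TAT-Cre, a cell-permeable form of the Cre recombinase that removes floxed segments, 3 h apart, and then media alone. WT Rb-HA MEFs received the same TAT-Cre treatments and 2 infections with a retrovirus for HA-tagged wild-type Rb. ΔCdk Rb-HA MEFs received TAT-Cre and 2 infections with a retrovirus for an Rb mutant that lacks the Cdk phosphorylation sites. According to the methods of the study, the cells had been arrested by contact, released and exposed to the DNA-damaging drug doxorubicin before RNA was taken, which the sample labels do not mention. Ages and sexes of the embryos are not given in the sources used here. All 3 ratios share the 1 parental array, so anything particular to that culture enters all of them, and the parental culture, the TAT-Cre treatment and the loss of Rb cannot be told apart in these arrays. The p-values of a test would need replicate cultures, and none were computed. In bulk RNA, fewer cells of a type and less RNA per cell cannot be told apart.

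As background, Rb binds E2F transcription factors and holds back genes for DNA replication, and phosphorylation by cyclin-dependent kinases releases the E2Fs in late G1. Fibroblasts also carry a basal interferon program. Secreted type I interferon acts on a surface receptor and switches on antiviral effectors whose promoters hold interferon-stimulated response elements. Primary MEF cultures are prepared from whole embryo tissue, and macrophages, which need the receptor Csf1r, can be carried along with the fibroblasts.

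Promoter sequences of the members are shown first, because the lower members differed in how often their promoters held an interferon response core. Promoters came from RefSeq (assembly GRCm38.p6) as the 250 bases before and 50 bases after each annotated start, and 102 of the 143 lower members and 21 of the 28 higher members had one. The core was searched as GAAANNGAAA on both strands, with overlapping copies counted apart, and it is a set of letters rather than a known binding site. It was found for 21 of the 102 lower members (20.6%), for 0 of the 21 higher members, for 296 of 8002 analysed genes with a promoter (3.70%) and for 1079 of all 27025 genes in the promoter table (3.99%). The 102 include genes detected on the parental array alone, among them Oas1a and Gbp5. No share without such genes was computed. The stretches below are 40 bases long and lie upstream of the start, read 5′ to 3′ on the gene's own strand, with the core in capitals, as its reverse complement where it lies on the other strand. Oas1a, Bst2, Parp4 and Apol9b held 2 overlapping copies, Phf11 and Gbp5 held 1, and Ctss was the only lower member on the macrophage list with a copy.
Oas1a (chr5:120907526-120907565, minus strand): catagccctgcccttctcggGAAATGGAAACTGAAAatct
Bst2 (chr8:71537578-71537617, minus strand): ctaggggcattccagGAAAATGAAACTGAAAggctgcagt
Parp4 (chr14:56575454-56575493, plus strand): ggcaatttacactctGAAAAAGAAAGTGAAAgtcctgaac
Apol9b (chr15:77729020-77729059, plus strand): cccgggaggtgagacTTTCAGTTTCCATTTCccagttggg
Phf11 (chr14:59297527-59297566, minus strand): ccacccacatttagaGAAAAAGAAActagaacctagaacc
Gbp5 (chr3:142496754-142496793, plus strand): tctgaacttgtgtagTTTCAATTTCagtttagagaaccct
Ctss (chr3:95526746-95526785, plus strand): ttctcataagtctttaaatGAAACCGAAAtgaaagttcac

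Among lower members on the interferon and antigen presentation lists, 7 of 19 genes with a promoter held the core (36.8%), against 1 of 14 on the macrophage list (7.14%). Among the 31 genes with a promoter that were lower on all 3 arrays but whose TAT-Cre values were 1.6-fold or more apart, 15 held it (48.4%). An E2F site, searched as TTTCGCGC or TTTGGCGC on both strands, was found for 4 of the 21 higher members (19%), for 1 of the 102 lower members (the proteasome gene Psmb9) and for 146 of the 8002 analysed genes (1.82%). Hist1h2an is shown for the higher members, and Mcm5 and Mcm6 for the genes that were higher on all 3 arrays but uneven among them, with the E2F letters in capitals. Mcm5 and Mcm6 each held 2 overlapping copies, on opposite strands, in these stretches.
Hist1h2an (chr13:21787277-21787316, minus strand): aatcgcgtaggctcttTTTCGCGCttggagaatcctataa
Mcm5 (chr8:75109340-75109379, plus strand): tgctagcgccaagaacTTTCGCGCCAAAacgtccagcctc
Mcm6 (chr1:128359792-128359831, minus strand): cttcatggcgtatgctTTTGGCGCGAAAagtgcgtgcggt

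An NF-κB site, GGGANTTTCC, was found for 1 of the 102 lower members, Gbp5, and for 39 of the 8002 analysed genes (0.487%). The cAMP response element, TGACGTCA, was found for 3 of the 102 lower members (2.94%) and 1 of the 21 higher members (4.76%), against 292 of 8002 genes (3.65%). A match describes the letters in this window and not the binding of a factor.

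**Figure D1:**
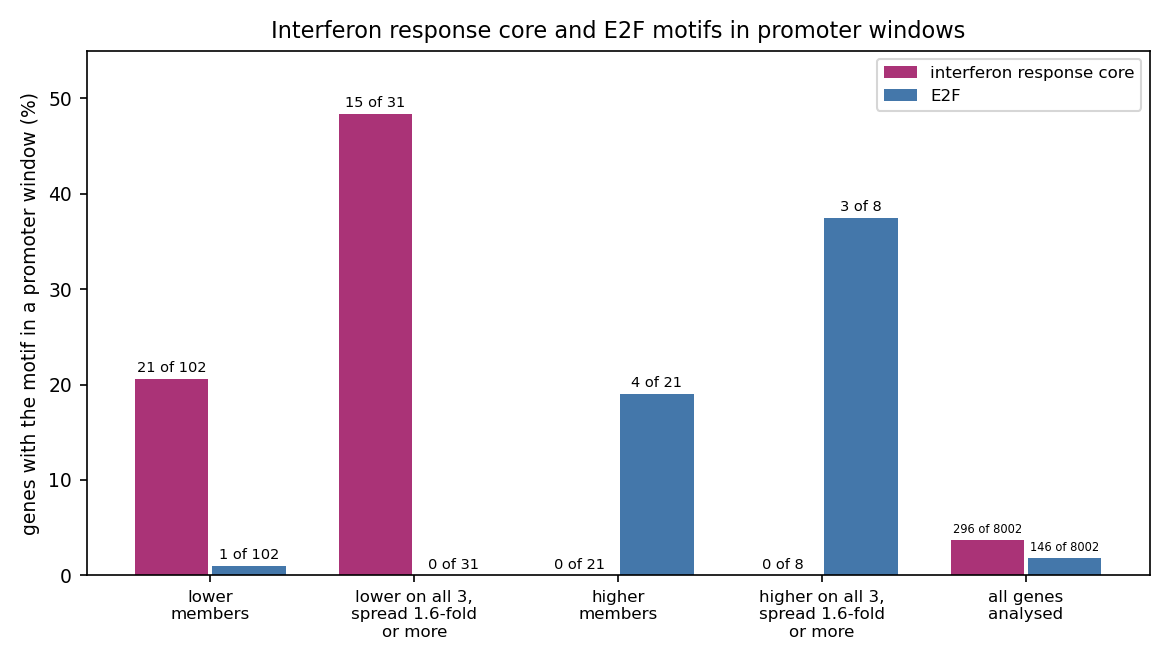
Percentage of genes with a RefSeq promoter whose window of 250 bases before and 50 after the start held the interferon response core (GAAANNGAAA) or an E2F site (TTTCGCGC or TTTGGCGC), for members, for genes shifted on all 3 arrays with TAT-Cre values 1.6-fold or more apart, and for all analysed genes. The core was found for 21 of 102 lower members and 296 of 8002 analysed genes, and the E2F site for 4 of 21 higher members and 146 of 8002.

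The arrays were alike in depth, with 15950 to 16740 probes detected, a mean intensity of 336 to 346 and a median of 44 beads per probe. Intensities below are the deposited values in array units, in the order parental, Rb-deleted, WT Rb-HA, ΔCdk Rb-HA, and log2 ratios follow the order of the 3 TAT-Cre arrays. Log2 ratios to parental come from background-corrected, quantile-normalized values and are therefore larger than the ratio of the deposited intensities for dim probes. Over all 12616 genes the median log2 ratio was 0.02, 0.01 and -0.01. On the Rb-deleted array 376 genes were lower by 1.6-fold (2.98%) and 270 were higher (2.14%). For WT Rb-HA 310 were lower (2.46%) and 112 higher (0.888%), and for ΔCdk Rb-HA 416 were lower (3.3%) and 325 higher (2.58%). On all 3 arrays 189 genes were lower (1.5%) and 38 were higher (0.301%), while 19 of the 1121 genes past 1.6-fold on any array passed it in opposite directions on different arrays. The 189 lower genes were 50.3%, 61.0% and 45.4% of the genes lower on each array in that order, and the 38 higher genes were 14.1%, 33.9% and 11.7% of the genes higher on them. The requirement of even TAT-Cre values left the 143 lower members (1.13% of all genes) and the 28 higher members (0.222%). That requirement alone was met by 94.8% of all genes.

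Lower members had median log2 ratios of -1.09, -1.12 and -1.18, the last on ΔCdk Rb-HA. Their median spread among the 3 TAT-Cre arrays was 0.27 on the log2 scale, or 1.21-fold, against 0.25 for all genes. The deposited bead standard error measures the scatter of beads within an array and not that between cultures. It gave a median error of 0.12 per log2 ratio. All 143 ratios on each array passed 2 of these errors, but the 1.6-fold limit of the rule made this likely in advance, so it adds no support. Parental intensities of the lower members ran from 57.3 to 3291, with a median of 173. A fall past 2-fold on all 3 arrays was measured for 68 of the 143. The higher members moved less, with median log2 ratios of 1.05, 0.80 and 0.95, and 1 of the 28, Hist1h2ak, passed 2-fold on all 3.

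All 143 lower members were detected on the parental array, with a detection p-value below 0.01. This largely follows from the selection, since the filter asked for detection on 1 array and the rule made parental their highest. On the TAT-Cre arrays 100 were detected on all 3, 7 on 2, 4 on 1 and 32 on none. These 32 passed the filter through the parental array alone, and they are counted in the shares given for lists, promoters and gene ontology. Where a probe was not detected, only a bound on the fold is given, as background-corrected values against the higher of the probe's own value and the dimmest detected probe. Such a bound holds on the corrected scale alone and depends on the correction and its offset, since deposited intensities still contain background and their ratios are smaller. With the 43 partly undetected genes at their bounds, the median log2 ratios of the lower members were -1.01, -1.04 and -1.12, and 120 of the 143 still passed 1.6-fold on every array. All 28 higher members were detected on the 3 TAT-Cre arrays, and 26 of them on the parental array. The exceptions were Zcchc18, at least 1.84-fold, 1.6-fold and 1.71-fold higher on the corrected scale, and Rnpc2, at least 1.57-fold, 1.78-fold and 1.55-fold higher. On the deposited scale Zcchc18 read 56.8, 83.5, 77.9 and 80.4, and Rnpc2 53.8, 74.8, 83.9 and 74.6, which are smaller folds.

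**Figure D2:**
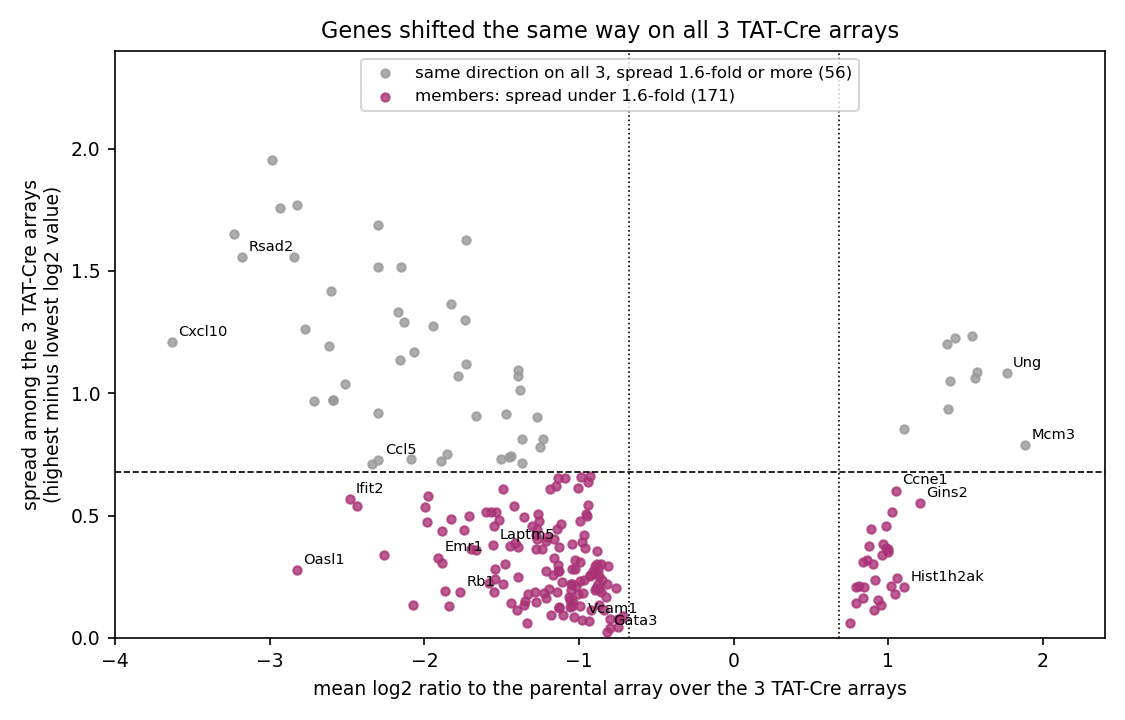
Mean log2 ratio to the parental array over the 3 TAT-Cre arrays (x axis) against the spread among these arrays, highest minus lowest log2 value (y axis), for the 171 members and the 56 genes shifted in the same direction on all 3 with a spread of 1.6-fold or more; dotted and dashed lines mark 1.6-fold. Oasl1 has the largest mean fall among members, -2.82, and Gins2 the largest mean rise, 1.21.

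Rb1, the gene that TAT-Cre targets, was itself a lower member. Its brighter probe read 543 on the parental array and 160.5, 181 and 170.1 on the TAT-Cre arrays, and its log2 ratios were -1.88, -1.69 and -1.75, with bead standard errors of 0.08, 0.06 and 0.06. A second probe read 108, 56.7, 51.1 and 52.9 and fell below detection on both arrays of virus-infected cells. All 3 TAT-Cre arrays lay below the parental array on both probes, and on the brighter probe they were within 0.19 log2 units of each other. The probes start at positions 4421 and 4002 of the transcript, toward its 3′ end, and their overlap with the floxed segment and with the retroviral Rb was not checked here, so they are no check of either. Retinoblastoma family members and Cdk inhibitors, a list of 15 analysed genes, held no other member.

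Antiviral effectors included the members with the largest falls. The list of Ifit, Oas and related interferon-induced genes had 34 analysed genes, of which 34 lay below parental on all 3 arrays (against 29.5% of all genes), 28 passed 1.6-fold on all 3 (against 1.5% of all genes) and 13 were members, the rest being too uneven among the TAT-Cre arrays or short of the threshold. Its median log2 ratios were -1.33, -1.42 and -1.87, against 0.02, 0.01 and -0.01 for all genes. Oasl1, an oligoadenylate synthetase-like protein that restrains interferon production, read 289 in parental MEFs and 62.4, 63.3 and 56.3 after TAT-Cre. Its log2 ratios of -2.72, -2.76 and -2.99 (bead standard errors 0.12, 0.13 and 0.13) were the largest of any member. Ifit2, which binds foreign RNA and blocks its translation, read 712, 171, 139.6 and 122, with log2 ratios of -2.18, -2.54 and -2.74. Its second probe gave -2.07, -2.43 and -2.79, the same order of the arrays. The spread on that probe was 0.73 on the log2 scale, past the 1.6-fold limit of the rule. Ifi44, another interferon-induced gene, read 212, 63.3, 60.5 and 51.3, and was undetected on the ΔCdk Rb-HA array, where it was at least 5.82-fold lower on the corrected scale.

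Sensors of foreign RNA were among the members. Ddx58, the cytosolic RNA sensor RIG-I, read 494, 190.2, 206 and 149, with log2 ratios of -1.45, -1.32 and -1.84. Oas2, which makes the second messenger for RNase L, read 117, 54.1, 60.4 and 52.7 and was undetected on the ΔCdk Rb-HA array, at least 2.90-fold lower on the corrected scale. Its relative Oas1a read 74.8, 37.3, 41.1 and 39, undetected on all 3 TAT-Cre arrays and at least 1.65-fold, 1.51-fold and 1.59-fold lower on that scale. The Oas genes were thus near or under the detection limit after TAT-Cre, where their ratios depend on the background correction. Phf11, a nuclear protein induced by interferon, read 116, 59.2, 55.6 and 48.5, and was detected on the parental and Rb-deleted arrays alone. Bst2 (tetherin), which holds budding virus at the cell surface, is named with the promoters above and had log2 ratios of -1.0, -1.45 and -1.37, with wide bead standard errors of 0.32, 0.27 and 0.29. The remaining members of the list were Adar, which edits double-stranded RNA, Samhd1, which depletes nucleotides that viruses need, the ubiquitin ligase Trim21, Lgals3bp, and Mx1, which was undetected after TAT-Cre. Without Mx1 their mean log2 ratios ran from -0.94 for Adar to -1.11 for Lgals3bp, smaller falls than those of the genes above.

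Of the interferon-induced GTPases, 8 of 10 analysed genes were lower by 1.6-fold on all 3 arrays, against 1.5% of all genes. Only 1, Gbp5, was a member, a count too low to set against the 1.13% of all genes. Gbp5, a guanylate-binding protein that promotes inflammasome assembly, read 83.4 on the parental array and 43.0, 47.2 and 34.9 on the TAT-Cre arrays, where it was undetected. After background correction it was at least 1.93-fold, 1.77-fold and 1.86-fold lower. Upstream of the effectors, the list of interferon signalling genes had smaller medians, -0.42, -0.41 and -0.53. Of its 21 genes, 19 were below parental on all 3 arrays and 2 were members, against 29.5% and 1.13% of all genes. Tlr2, the receptor for bacterial lipoproteins, read 844, 332, 347 and 365, and its log2 ratios were -1.37, -1.29 and -1.18. Irf5, a transcription factor of myeloid cells, read 109, 70.8, 72.8 and 65.2. The TAT-Cre values of Tlr2 were 1.14-fold apart and those of Irf5 1.15-fold.

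Antigen presentation genes were lower by less. Of the 18 analysed genes, 17 were below parental on all 3 arrays and 6 were members, against 29.5% and 1.13% of all genes. The median log2 ratios of the list were -0.62, -0.59 and -0.78. Psmb8, Psmb9 and Psmb10 encode the catalytic subunits of the immunoproteasome, which cuts peptides for class I molecules. Psmb8 read 963, 475, 474 and 415 (log2 ratios -1.01, -1.01 and -1.16), Psmb9 gave -0.83, -1.17 and -1.45, and Psmb10 gave -0.81, -0.86 and -1.23. All 3 were furthest from parental on the ΔCdk Rb-HA array. Tap2, a subunit of the pump that carries these peptides into the endoplasmic reticulum, read 742, 326, 338 and 345, and its TAT-Cre values were 1.09-fold apart. Psmb9, Psmb8 and Tap2 are neighbours on chromosome 17. H2-T23 and H2-M3, nonclassical class I molecules, complete the 6, and the probe of H2-T23 shares 45 of its 50 bases with a probe of another gene, so its signal may be joint.

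Markers of macrophages moved with these genes. The list had 49 symbols, of which 34 were analysed and 31 were below parental on all 3 arrays, against 29.5% of all genes. Of the 34, 22 passed 1.6-fold on all 3 and 21 were members, against 1.5% and 1.13% of all genes. Its median log2 ratios were -1.01, -1.13 and -1.08. The summed deposited intensity of the list was 15875 on the parental array and 8178, 7541 and 9162 on the TAT-Cre arrays. The exceptions among analysed genes, not below parental on all 3, were Cd53, Clec4n and Itgb2. A further 13 markers were on the array and not detected in any of the 4 samples, among them Ptprc, which encodes the leukocyte antigen CD45, and Itgam, which encodes CD11b. The part of these cells in the lower members was not tested.

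Emr1, which encodes the macrophage antigen F4/80, read 773 in parental MEFs and 247, 203 and 198 after TAT-Cre, with log2 ratios of -1.69, -2.02 and -2.02 (bead standard errors 0.06, 0.07 and 0.07). A second Emr1 probe gave -1.78, -2.20 and -2.27. Mpeg1, a pore-forming protein of phagocytes, read 919, 276, 244 and 257. Laptm5, a lysosomal membrane protein of blood cells, was brighter, at 2286, 860.2, 663 and 782, with log2 ratios of -1.40, -1.78 and -1.49. These genes were lower on every TAT-Cre array and least so on the Rb-deleted array. Ms4a6d and Ms4a7, membrane proteins of the myeloid lineage, gave ratios of -1.51 to -1.88 and -1.25 to -1.76. C1qb and C1qc, chains of the complement protein C1q that macrophages make, read 168, 71.3, 69.9 and 59.4, and 214, 80.7, 93.7 and 88.4. Csf1r, the receptor on which the lineage depends, fell from 272 to 159, 134 and 140.1, and Cd68 from 169.8 to 97.8, 93.0 and 99.9. All of these genes were detected on every array.

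The macrophage members and the interferon members differed in which TAT-Cre array lay furthest from parental. Of the 21 macrophage members, 14 were furthest on WT Rb-HA, 6 on ΔCdk Rb-HA and 1 on Rb-deleted, with median log2 ratios of -1.16, -1.41 and -1.28. Of the 22 members on the interferon and antigen presentation lists, 15 were furthest on ΔCdk Rb-HA, 3 on WT Rb-HA and 4 on Rb-deleted, with medians of -1.1, -1.15 and -1.33. Over all 143 lower members the counts were 69 on ΔCdk Rb-HA, 43 on WT Rb-HA and 31 on Rb-deleted. These orders rest on differences smaller than the 1.6-fold limit of the rule and have no replicate check.

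**Figure D3:**
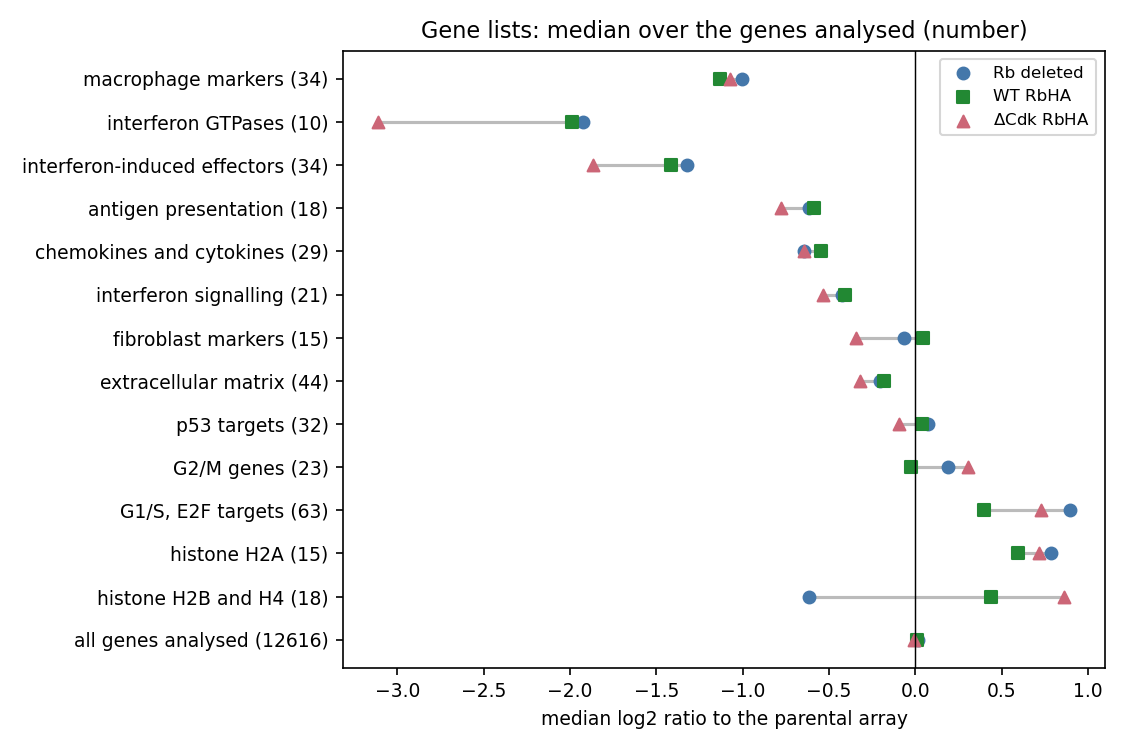
Median log2 ratio to the parental array of each gene list on each of the 3 TAT-Cre arrays, over the analysed genes of the list and not the members alone. The interferon-induced lists and the macrophage markers lie below 0 on all 3 arrays, the G1/S E2F targets (0.90, 0.40 and 0.73) and H2A histones (0.78, 0.59 and 0.72) above 0, and the fibroblast markers near 0 except on ΔCdk Rb-HA (-0.34).

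Cytokines and chemokines, a list of 29 analysed genes with medians of -0.64, -0.55 and -0.65, held 5 members, against 1.13% of all genes. Il1b, the inflammatory cytokine interleukin-1β, read 115 on the parental array and 42.8, 41.6 and 44.5 on the TAT-Cre arrays, where it was undetected and, after background correction, at least 2.97-fold, 2.72-fold and 2.86-fold lower. Il1rn, the antagonist of its receptor, read 659, 254, 266 and 365 and was nearest to parental on ΔCdk Rb-HA. Ccl9, which attracts myeloid cells, read 578, 181, 129 and 175, with log2 ratios of -1.78, -2.36 and -1.79. The antagonist and the chemokine leaned in different directions within the spread that the rule allows, with Ccl9 lowest on WT Rb-HA. Cxcl9, which attracts activated T cells, fell from 96.3 to undetected values of 47.3, 50.9 and 45.2, at least 2.35-fold, 2.16-fold and 2.27-fold lower after the same correction. Cxcl15, a chemokine of the CXC family, read 329.8, 138, 177 and 129. Tnfaip3, the ubiquitin-editing enzyme A20 that dampens NF-κB signalling, read 300.0, 133, 166 and 141. It was the only member among 25 immediate early genes, a count too low to set against the 1.13% of all genes.

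Other lower members of large shift were not on a list. Bcl2a1d and Bcl2a1b, anti-apoptotic relatives of Bcl2, read 382, 105, 98.5 and 87.9, and 335, 117, 102 and 98.7, but their probes share 34 of 50 bases and the values may not be separate. Cd274, which encodes the immune checkpoint ligand PD-L1, read 250.5, 90.9, 86.7 and 74.1, with log2 ratios of -1.69, -1.84 and -2.12. Irg1, the enzyme that makes itaconate in activated macrophages, read 253, 107, 88.3 and 83.5. The array symbols Msr2 and Fcrls name 1 gene of the Fc receptor-like family, and its probes gave mean log2 ratios of -1.99 and -1.98. In each of these genes the parental value was at least 2-fold above every TAT-Cre value.

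Further lower members outside the lists were chosen after their values were seen. Casp1 and Casp4, inflammatory caspases that neighbour each other on chromosome 9, read 416, 159.6, 151 and 138, and 377, 157, 187 and 203. Vcam1, an adhesion molecule that fibroblasts and endothelial cells carry and inflammatory signals induce, read 2372, 1157, 1165 and 1184, with log2 ratios of -1.01, -1.0 and -0.94. Its 2 other detected probes were dimmer and gave -0.92, -0.35 and -0.26, and -0.52, -0.28 and -0.29, so that the size of its fall depended on the probe. Members with closely similar values after all 3 treatments were also seen outside immune functions. Pdgfb, a growth factor for mesenchymal cells, read 139.8, 68.0, 65.7 and 64.7. Spock3, a proteoglycan of the matrix, read 354, 162, 147 and 145. Fcgr3 and Fcgr4, activating Fc receptors, and Gp49a and Lilrb4, related immunoglobulin-like receptors of leukocytes whose probes share 45 of 50 bases, were neighbouring pairs among the members.

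Matrix and stress genes held few members, at a count too low to set against the 1.13% of all genes that were lower members. Of 44 analysed extracellular matrix genes, 28 were below parental on all 3 arrays but with small medians of -0.20, -0.18 and -0.32, and 1 was a member. Col5a2, a chain of type V collagen, read 906, 554, 459 and 437, with log2 ratios of -0.69, -0.96 and -0.99. All 15 fibroblast markers were detected in all 4 samples, summed to intensities between 54182 and 62414, and held 0 members. Mt2, a metal-binding metallothionein, and Slc7a11, the cystine transporter, were the 2 members among 27 stress genes, with Mt2 at 333, 149.7, 174 and 147. Hdc, which makes histamine, was the only member among 6 analysed mast cell markers, a list whose summed intensity was 824, 391, 630 and 1705 and so was highest on ΔCdk Rb-HA, unlike Hdc. Hdc read 95.7, 55.9, 55.2 and 52.9, and after TAT-Cre it was detected on the Rb-deleted array alone. Among the lower members the most even on the TAT-Cre arrays was Gata3, a transcription factor, at 115, 73.8, 76.6 and 74.7, with a spread of 1.02-fold. The next were V1rd6, Pnpt1, Oas1a and Cd83, all of which were undetected on the TAT-Cre arrays, where the floor of the array limits any spread.

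**Figure D4:**
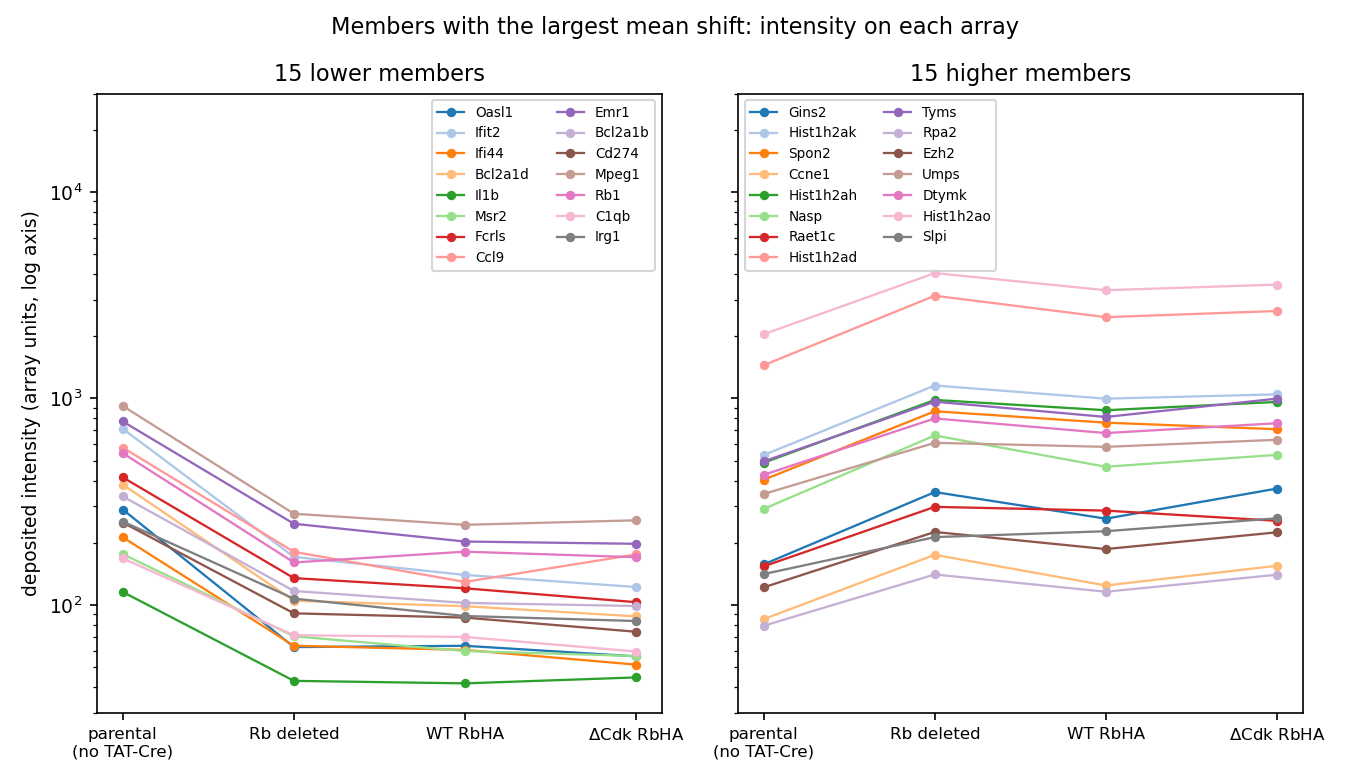
Deposited intensity (log axis) on each of the 4 arrays, 1 array per point, for the 15 lower and the 15 higher members with the largest mean shift; lines join the values of a gene. The lower members drop between the parental and the Rb-deleted array and are level across the 3 TAT-Cre arrays, with Il1b at undetected values there, while the higher members are often lower on WT Rb-HA than on the other TAT-Cre arrays.

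Genes of DNA replication led the higher members. The G1/S list of E2F targets had 63 analysed genes, of which 56 were above parental on all 3 arrays, against 30.9% of all genes. Of the 63, 13 passed 1.6-fold on all 3 and 6 were members, against 0.301% and 0.222% of all genes, and the list medians were 0.90, 0.40 and 0.73. Gins2, a subunit of the GINS complex of the replicative helicase, read 157 in parental MEFs and 352, 261 and 366 after TAT-Cre, with log2 ratios of 1.33, 0.87 and 1.42 (bead standard errors 0.11, 0.13 and 0.10). Ccne1, cyclin E1, which activates Cdk2 at the start of S phase, read 85.3, 175, 124 and 155. Nasp, a chaperone of histones, read 292, 662, 467 and 533. These genes were lowest on WT Rb-HA among the TAT-Cre arrays, and the rule itself placed all of their TAT-Cre values above parental. Tyms, thymidylate synthase, read 495, 964, 813 and 997, and Rpa2, a subunit of the protein that coats single-stranded DNA, read 79.2, 140.3, 116 and 139.9. Ezh2, the histone methyltransferase of the Polycomb complex, read 122, 225, 186 and 225. In all 6 the WT Rb-HA array was the nearest to parental on the chosen probe, where the rule required a shift of 1.6-fold or more. A second Rpa2 probe gave log2 ratios of 0.83, 0.05 and 0.68, so on that probe WT Rb-HA lay near parental. A second Gins2 probe gave 1.39, 0.64 and 0.94, short of 1.6-fold on WT Rb-HA. Its spread of 0.75 was past the 1.6-fold limit.

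Nucleotide synthesis genes outside the list, on the probes that chose them, were also nearest to parental on WT Rb-HA. Dtymk, thymidylate kinase, read 427, 799.8, 679 and 758, and Umps, which completes the synthesis of uridine monophosphate, read 344, 609, 582 and 630.3. Both other detected Umps probes were instead nearest to parental on ΔCdk Rb-HA, at log2 ratios of 0.56, 0.14 and 0.1, and 0.68, 0.37 and 0.15. Over all 28 higher members the WT Rb-HA array was nearest to parental in 15, ΔCdk Rb-HA in 9 and Rb-deleted in 4. The furthest array was Rb-deleted in 15, ΔCdk Rb-HA in 9 and WT Rb-HA in 4.

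Histone genes split by type. Of 15 analysed H2A genes, 11 were above parental on all 3 arrays and 5 were members, against 30.9% and 0.222% of all genes. Hist1h2ak read 532, 1155, 997 and 1046, and Hist1h2ao, the brightest, read 2047, 4046, 3343 and 3559.8. Hist1h2ad gave log2 ratios of 1.2, 0.84 and 0.97, Hist1h2ah of 1.1, 0.93 and 1.1, and Hist1h2an of 1.07, 0.76 and 0.75. Their probes share 45 to 48 of 50 bases within 2 sets, Hist1h2ad with Hist1h2an and Hist1h2ao, and Hist1h2ah with Hist1h2ak, so the 5 symbols are fewer than 5 separate measurements. H2B and H4 genes, 18 of them analysed, held 0 members and 0 genes on the same side of parental on all 3 arrays, with medians of -0.62 on the Rb-deleted array, 0.44 on WT Rb-HA and 0.86 on ΔCdk Rb-HA.

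The remaining higher members had no shared list. Spon2, a secreted matrix protein, read 404, 867, 763 and 709. Raet1c, a ligand of the activating receptor NKG2D on natural killer cells, read 154, 298, 286 and 255. Slpi, a secreted inhibitor of leukocyte proteases, read 141, 213, 227 and 263 and was highest on ΔCdk Rb-HA. The most even were Ube2e1, a ubiquitin-conjugating enzyme, at 86.5, 129, 131 and 124, LOC329750, LOC637353, Nt5dc2 and Umps. Their TAT-Cre values were between 1.04-fold and 1.11-fold apart.

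Second probes give a separate measurement of the same RNA, which the rule did not use. For lower members, 56 further detected probes of 39 genes were found. Of these 52 were below parental on all 3 arrays, as were 25.3% of such probes over all genes. A fall past 1.6-fold on all 3 was measured on 28 of the 56, against 57 of 5130 such probes over all genes (1.11%), and 0 passed 1.6-fold higher on any array. Of the 28, 26 also had TAT-Cre values less than 1.6-fold apart, and the exceptions were probes of Ifit2 and Adar. The median mean log2 ratio of the 56 was -0.83, against -1.1 for the probes that chose the same genes. A second probe of Ascc3 was the only one above parental on all 3 arrays, at 0.34, 0.31 and 0.16. For higher members, 14 further detected probes of 9 genes were all above parental on all 3 arrays, as were 32% of such probes over all genes, but 2, of Hist1h2ad and Hist1h2ah, passed 1.6-fold on all 3. Their medians were 0.84, 0.32 and 0.50, nearest to 0 on WT Rb-HA. Over all genes, 23 of the 5130 probes passed 1.6-fold higher on all 3 (0.448%). The probe chosen for a gene was its brightest, not its most changed. For Nasp, the second probes gave 0.24 to 0.37 on WT Rb-HA against 0.77 for the chosen probe. For Umps they gave 0.14 and 0.37 against 0.86, and a second Rpa2 probe gave 0.05 against 0.74. Those of Dtymk gave 0.15 and 0.20 against 0.76, and those of Raet1c 0.54 and 0.28 against 1.05. A second Gins2 probe gave 0.64 against 0.87. All of these probes stayed short of 1.6-fold on WT Rb-HA.

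**Figure D5:**
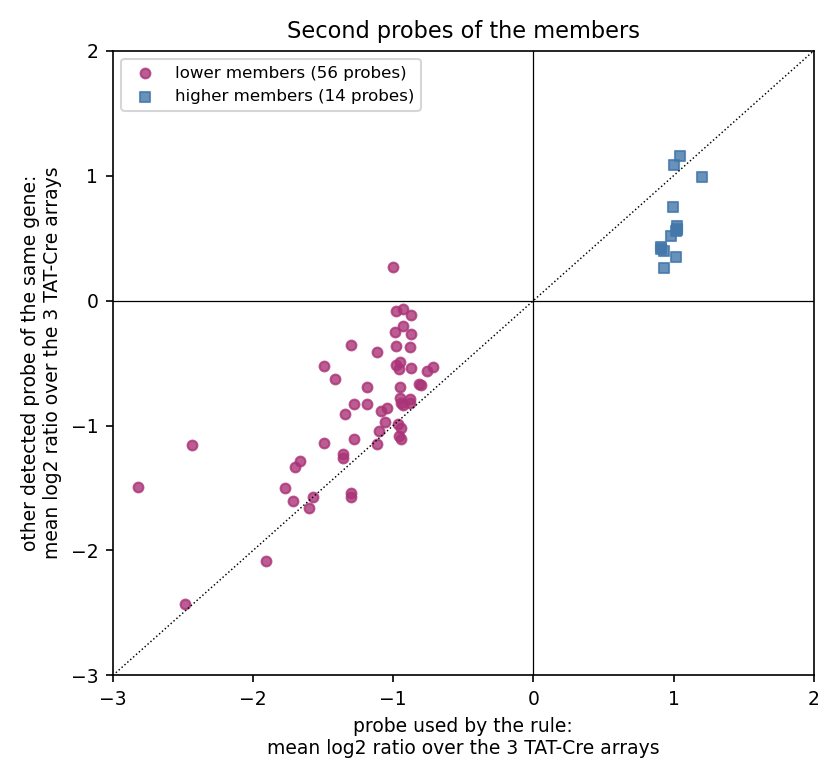
Mean log2 ratio to the parental array over the 3 TAT-Cre arrays for the probe that chose each member (x axis) and for other detected probes of the same gene (y axis); the line marks equal values. Most other probes lie on the same side of 0 as the chosen probe and nearer to 0, with medians of -0.83 for lower and 0.56 for higher members.

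Genes that moved the same way on all 3 arrays but unevenly were a different mix. Of the 46 lower ones, 26 were on the interferon and antigen presentation lists and 1 on the macrophage list, and 44 were furthest from parental on the ΔCdk Rb-HA array. Their median log2 ratios were -1.64, -1.77 and -2.74. Of the 12616 analysed genes, the 3 interferon lists held 34, 10 and 21, the antigen presentation list 18 and the macrophage list 34. Cxcl10, a chemokine induced by interferon, read 605, 74.0, 90.7 and 52.0, and Ifit3 read 3548, 537, 569 and 194. Usp18, which removes Isg15 from proteins and limits interferon signalling, read 4424, 924, 961 and 295. In these 3 genes the ΔCdk Rb-HA value lay below both others. Clec4d, a lectin receptor of macrophages, and Coch, a secreted protein, were the exceptions, nearest to parental on ΔCdk Rb-HA.

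Of the 10 higher ones, 9 were furthest from parental on the Rb-deleted array, with medians of 2.00, 0.98 and 1.48. Mcm5 and Mcm6, subunits of the replicative helicase, read 367, 1274, 565 and 950.1, and 273, 1164, 507 and 624. Ung, which removes uracil from DNA, read 109.6, 490.1, 243 and 253. Cck, a peptide hormone, was the exception, at 141, 288, 298 and 565. The rule separated the uneven genes of both directions from the members by spread alone. Their median shifts were also larger than those of the members on every array, and why they were uneven was not tested.

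Genes on either side of the shift threshold were close in value. The lower members with the smallest shift, H2-Q5, Cyth4 and Dio2, had a least fold of 1.602, 1.605 and 1.61, while Hnrnpd, Fcgr2b and Isg20 missed at 1.59, 1.59 and 1.59. The shift threshold thus separated genes whose values differed by less than their bead errors. By spread, Ube1l, Trim21 and Trex1 were just inside at 1.58-fold, 1.58-fold and 1.58-fold, and Cd69, Rtp4 and Slc15a3 just outside at 1.64-fold, 1.64-fold and 1.65-fold. Zcchc18, Ccne1 and 1110001A07Rik were the higher members of least shift, at 1.61, 1.63 and 1.64, and 1810027O10Rik, Mageh1 and 4933417E08Rik missed at 1.598, 1.59 and 1.58. By spread, Ccne1, Gins2 and Nasp were inside at 1.52-fold, 1.47-fold and 1.43-fold, and Mcm3, Mcm4 and Wdhd1 outside at 1.73-fold, 1.81-fold and 1.91-fold. This gap was wider than those at the other thresholds.

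Several lists had no member, which at 1.13% lower and 0.222% higher members over all genes is near the overall share for lists of this length. These were the p53 targets (32 analysed genes, medians 0.07, 0.04 and -0.09), G2/M genes (23), growth factors of the Igf group (28), myofibroblast genes (23), sterol and lipid genes (22) and proteases (24). Markers of lymphocytes, endothelium, epithelium, muscle and neurons had 3, 5, 5, 8 and 7 analysed genes and 0 members, and none of 10 erythroid markers was detected. In all, 54 of the 143 lower and 11 of the 28 higher members were on at least 1 list. By the array's own gene ontology annotation, immune response was given for 17 of 86 annotated lower members (19.8%), against 126 of 6982 annotated genes (1.80%), and inflammatory response for 8 (9.30%), against 0.86%. Nucleosome assembly was given for 5 of 19 annotated higher members (26.3%), against 0.93%, and DNA replication for 3 (15.8%), against 1.23%. Immune response was also given for 2 of these 19 (10.5%), so that term was not particular to the lower members. H2A symbols whose probes share bases were counted singly, so the nucleosome assembly share may rest on fewer than 5 separate measurements.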

How the data were processed

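Total RNA of 4 MEF samples was hybridized as biotinylated cRNA, 1 array per condition. The authors deposited bead-averaged intensity values on a linear scale, not normalized between arrays, with a detection p-value, a bead standard error and a bead number for each probe; per the labels and the methods, software and normalization are not given in the sources used here. The table mixes genome builds, so chromosomes and transcript positions alone were taken from it. Of 40 symbols turned into dates, 34 were restored from a RefSeq table.

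Background correction of the deposited intensities used limma (version 3.58.1, R 4.3.3), by normexp with detection p-values and an offset of 16, and the arrays were quantile normalized on the log2 scale. Genes were kept where 1 or more arrays had a detection p-value below 0.01, and were represented by their brightest probe, which left 17746 probes and 12616 genes. Bead standard errors were carried to the log2 scale. They cover beads within an array, so the number of arrays limits the precision. Further steps used Python 3.11.15, numpy 2.4.6 and pandas 2.3.3. The selection was run on simulated data made from the parental array with bead noise alone. Those data held no variation between cultures and left the dimmer genes unchanged, so they check the steps and not the members.

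Members and all 29 gene lists were chosen with earlier results of these data known. Genes named were Rb1, the 15 members with the largest mean ratio each way, up to 4 more of each list, the 5 with the smallest spread each way and the 3 on each side of each threshold. Others, including those shown with promoters and those of uneven TAT-Cre values, were chosen after their values were seen. Settings that were varied are the background correction and offset, the scaling, the detection filter, the probes per gene, the fold, the spread, the use of bead errors and the arrays included.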

Additional observations from a re-analysis of the deposited data

How the results depend on the processing

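The count of members depended on the background correction and on the fold more than on the scaling between arrays. The reported counts were 189 genes lower and 38 higher on all 3 arrays, 143 lower members and 28 higher members. Without background correction 24 genes were higher on all 3 and 16 were higher members. There were then 100 lower members, and 55 of the 143 were lost. With an offset of 50 the 4 counts were 116, 23, 86 and 17, and with an offset of 1 they were 296 lower, 142 higher, 203 lower members and 112 higher members. At 1.5-fold 66 genes were higher and 51 were higher members, and at 2-fold the 4 counts were 110, 6, 68 and 1. Leaving out 1 TAT-Cre array at a time gave 211 to 238 lower genes, 58 to 96 higher genes, 167 to 236 lower members and 49 to 91 higher members. Without the Rb-deleted array there were 70 higher genes and 63 higher members, without WT Rb-HA 96 and 91, and without ΔCdk Rb-HA 58 and 49, with 236 lower members. Fewer arrays set fewer conditions, so these counts can only be larger. Median scaling, cyclic loess, a detection p-value below 0.05, the mean of all detected probes, detection on all 4 arrays and the bead errors kept every count within 1.5 times. Under all 5 background and scaling alternatives 64 lower and 13 higher members remained. Of the G1/S members, Gins2, Nasp and Tyms remained, while Ccne1, Rpa2 and Ezh2 did not. Hist1h2an was the only H2A member that did not remain. Named lower members that did not remain included Ifi44, C1qb, Phf11, Oas1a, Psmb9, Irf5 and Col5a2. For named genes and list medians, 1013 values under alternatives moved by less than the stated spread, 181 by more, and 0 changed sign. No paired analysis was possible because each condition had 1 array. Dim genes are the limit, since 43 of the 143 lower members were undetected on at least 1 TAT-Cre array.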
